A study of Mus musculus with 7 samples.

Results

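The nuclear genes for subunits of respiratory complexes II to V were followed in tumor cells sorted from mammary fat pads. The cells were 4T1, an established mouse line used as a model of triple-negative breast cancer. Members were the protein-coding genes of the deposited expression table named Sdha, Sdhb, Sdhc, Sdhd, Cyc1 or Cycs, or with names starting with Uqcr, with Cox and a digit from 4 to 8, or with Atp5. This rule gave 52 genes of the 57126 in the table, 21643 of which are listed as protein-coding. They comprised 4 genes of complex II, 10 of complex III with cytochrome c, 19 of complex IV and 19 of complex V, under 51 symbols because Atp5po has 2 identifiers. The rule follows names, so it also took in Cox5b-ps, which is named as a pseudogene but listed as protein-coding, the supercomplex factor Cox7a2l and the ATP synthase inhibitor Atp5if1.

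The fat pads of BALB/c mice received 100 µL of phosphate-buffered saline (PBS) alone, or with 0.3 units of Botox, and 7 days later 4T1 cells carrying mCherry. There were 3 PBS libraries and 4 Botox libraries, each from its own mouse per the labels. Botox is botulinum toxin, which blocks transmitter release from nerve endings, and it was given to denervate the pad before the tumor grew, so the comparison asked what this did to the cancer cells. All libraries come from 1 cell line sorted on mCherry, and neither age nor sex of the mice is given in the labels.

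In oxidative phosphorylation, complex II passes electrons from succinate to ubiquinone, complex III passes them on to cytochrome c, and complex IV uses them to reduce oxygen. Complexes III and IV pump protons across the inner mitochondrial membrane, and complex V, the ATP synthase, lets them back through its membrane rotor to drive ATP synthesis. Complex II is encoded wholly in the nucleus, whereas complexes III, IV and V also contain subunits encoded by mitochondrial DNA (mtDNA), so their assembly needs products of both genomes. Some nuclear subunits, mainly of complex IV, have versions made in muscle, testis or lung in place of the common one.

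Values are given as scaled TPM, which is the deposited TPM without its added constant, divided by a size factor that sets nuclear protein-coding genes level between libraries. The deposited TPM divides by the genomic span of a gene, introns included, so scaled TPM compares 1 gene between libraries and does not rank genes. Estimated depth was 8.56 to 13.6 M reads per library, and the size factors ran from 1.22 to 1.43 in PBS and from 0.446 to 1.16 in Botox. Differences are Botox minus PBS on log2(scaled TPM + 0.1), a scale that understates the change of low genes, with the standard error of limma's fit. Of the 52 members, 40 had a mean of at least 0.2 scaled TPM and were tested. Among the other 12, Cox6a2, Cox7a1, Cox7b2, Cox8c and the second Atp5po identifier were listed at 0 in all 7 libraries. Cox8b, Cox5a and Atp5f1c passed the filter only through their Botox values and Cox7b only through its PBS values. The sorted material is bulk RNA, in which fewer cells of a type and less RNA per cell cannot be told apart.

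No member passed limma's test at an adjusted p of 0.05 over all 16889 genes tested. The background was 0.00592% of those genes called higher and 0% called lower, the single call being Gm16304, a processed pseudogene. Without adjustment, 2 members, Cox5b and Uqcrq, had p under 0.05, both higher after Botox, against 2% of the 10592 nuclear protein-coding genes tested in that direction and 1.07% in the other. In 5 of the 40 tested members, Uqcrq, Cox5b, Cox7c, Atp5mc3 and Atp5mk, all Botox libraries lay above the highest PBS library, against 4.37% of nuclear protein-coding genes tested. No member lay wholly below, against 3.43%. In all, 17 members had a difference above 0 and 23 below, and 44.9% of nuclear protein-coding genes tested were above 0. The median difference was -0.08 over the members and -0.04 over those genes. The filter itself favoured the sign of Cox8b, Cox5a and Atp5f1c, counted above 0, and of Cox7b, counted below.

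**Figure D1:**
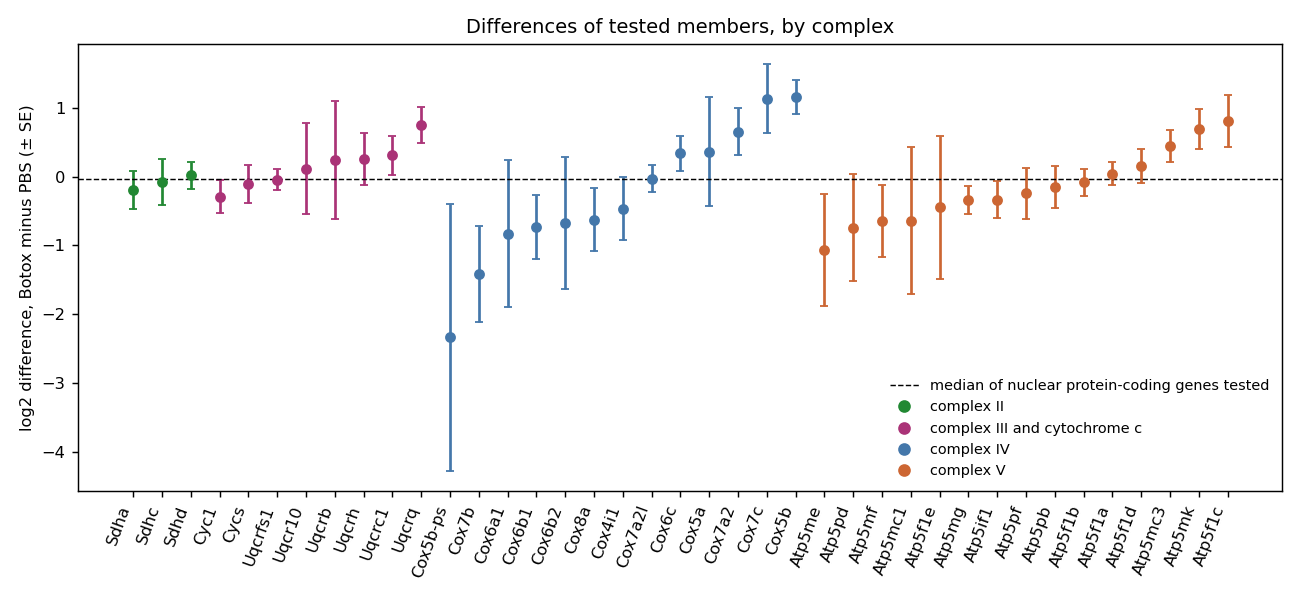
Log2 difference, Botox minus PBS, with its limma standard error for the tested members except Cox8b, ordered within each complex; the dashed line is the median of nuclear protein-coding genes tested (-0.04). The widest error bars belong to genes listed at 0 in Botox 2 or Botox 4, such as Cox5b-ps (-2.34 ± 1.94).

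The side on which these differences fell depended on the scale. On the deposited TPM, without size factors, the median of nuclear protein-coding genes was -0.62. There, 4 members, Sdha, Cox6b1, Atp5mf and Atp5mg, were lower in every Botox library than in any PBS library, against 26.4% of nuclear protein-coding genes tested, and none was higher throughout, against 0.0944%. The KEGG set for oxidative phosphorylation is a different list, whose genes were not matched to the members. In the authors' deposited table it has a ratio of 0.706 over 45 genes, a signed fold change of -1.42 and a false discovery rate of 4.11e-10. That ratio is read as Botox over control, and all 227 sets of the authors' deposited table have a ratio below 1, from 0.540 to 0.837 with a median of 0.683.

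All 3 tested members of complex II overlapped between the groups, with a median difference of -0.08. Sdhd, a membrane anchor of the complex, had fewer PBS reads than Sdhc (a mean of 733 against 932). Over its shorter genomic span, Sdhd had the highest mean scaled TPM of the complex. Its scaled TPM was 12.2, 11.4 and 9.52 in PBS 1 to 3 and 9.70, 9.64, 14.7 and 11.1 in Botox 1 to 4. Botox 3 was above all PBS libraries and the other Botox libraries lay within their range, so the groups overlapped (0.02 ± 0.19, limma adjusted p = 0.990). Sdhc, the other membrane anchor, was at 4.67, 4.45 and 4.19 after PBS and 4.50, 4.43, 6.55 and 2.33 after Botox. The highest and the lowest Sdhc value of all libraries were both from Botox mice, and the difference was -0.08 ± 0.33. Sdha, the catalytic flavoprotein that oxidizes succinate, was at 0.537, 0.581 and 0.492 and at 0.432, 0.306, 0.514 and 0.615, with Botox libraries on both sides of the PBS range (-0.20 ± 0.27). Sdhb, the iron-sulfur subunit, was too low to test, with 8 to 11 reads in PBS and 10, 18, 8 and 0 in Botox 1 to 4.

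The promoter of Sdhd is shown because it carries 2 of the motifs described for respiratory genes. The 250 bases before its start (GRCm38.p6, chr9:50603850-50604099, minus strand, from RefSeq) read as follows, with capitals for an NRF1 match at -79 to -70 and an ETS match at -46 to -40.
Sdhd: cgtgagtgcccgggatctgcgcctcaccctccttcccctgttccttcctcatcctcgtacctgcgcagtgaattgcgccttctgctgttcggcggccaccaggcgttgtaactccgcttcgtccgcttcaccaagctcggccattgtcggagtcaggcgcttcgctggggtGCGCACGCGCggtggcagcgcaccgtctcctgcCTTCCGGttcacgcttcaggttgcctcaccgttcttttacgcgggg
NRF1 and the ETS factor GABP are activators long linked to respiratory subunit genes, and YY1 is a further one. Of 36 members with a RefSeq promoter window of 300 bases, 10 (27.8%) held the NRF1 motif, which is GCGC, any base and TGCGC in a row, against 5.19% of 27025 genes. The ETS motif CCGGAAG was in 12 of the 36 (33.3%), against 9.93%, and the YY1 motif AAGATGGC in 3 (8.33%), against 3.19%. The 27025 are all genes with a window, not limited to protein-coding or tested genes, so this background differs from that used elsewhere. Both strands were searched, and a match is a run of letters, not a shown binding site. Of the 5 members higher in every Botox library, 3 had a window, in which Atp5mc3 held the NRF1 motif and Cox5b and Cox7c held none of the 3 motifs. Nrf1 itself was at 0.291, 0.288 and 0.321 after PBS and at 0.282, 0.235, 0.268 and 0.112 after Botox, lower in each Botox library, with a difference of -0.34 ± 0.34 and a limma adjusted p of 0.941.

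In complex III, 5 of the 8 tested members were above 0, with a median difference of 0.18. Without Botox 3 that median was -0.03, and without PBS 3 it was 0.02. Uqcrq, a small subunit that contacts cytochrome b, had the smallest p. It was at 6.64, 7.26 and 8.87 scaled TPM after PBS and at 9.34, 12.4, 11.9 and 19.2 after Botox, on 136 to 273 reads per library. All 4 Botox libraries were above the highest PBS library, Botox 4 most. The difference was 0.75 ± 0.26 (unadjusted p = 0.0232, limma adjusted p = 0.941), and 0.56 without Botox 4. On the deposited scale the groups overlapped, with a difference of 0.11 ± 0.32. No copy of Uqcrq was found among annotated pseudogenes.

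The electron carriers of complex III overlapped between the groups. Uqcrfs1, the Rieske iron-sulfur protein, was at 16.3, 15.9 and 15.6 after PBS and 13.6, 15.0, 19.6 and 14.3 after Botox (-0.04 ± 0.16), with 3 Botox libraries below and 1 above the narrow PBS range. Cyc1, cytochrome c1, which hands electrons to cytochrome c, was at 4.72, 4.42 and 5.73 and at 3.50, 2.99, 5.58 and 4.38. Botox 3 was within the PBS range and the other Botox libraries below it (-0.29 ± 0.24). Cycs, cytochrome c itself, which also starts apoptosis when released from mitochondria, was at 9.07, 8.03 and 6.51 and at 5.67, 7.95, 11.01 and 5.53. Its groups overlapped, with Botox 3 highest and Botox 4 lowest (-0.11 ± 0.28). Among the remaining tested members, Uqcrc1, a core protein, had 0.31 ± 0.28, Uqcrh, the hinge protein, 0.25 ± 0.38, Uqcrb 0.24 ± 0.85 and Uqcr10 0.11 ± 0.66. Uqcrc2, the other core protein, and Uqcr11 stayed under the filter, with 13 to 54 and 0 to 10 reads per library. The span of Uqcrh holds the pseudogene Gm12854, so reads of this pair may not be told apart.

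**Figure D2:**
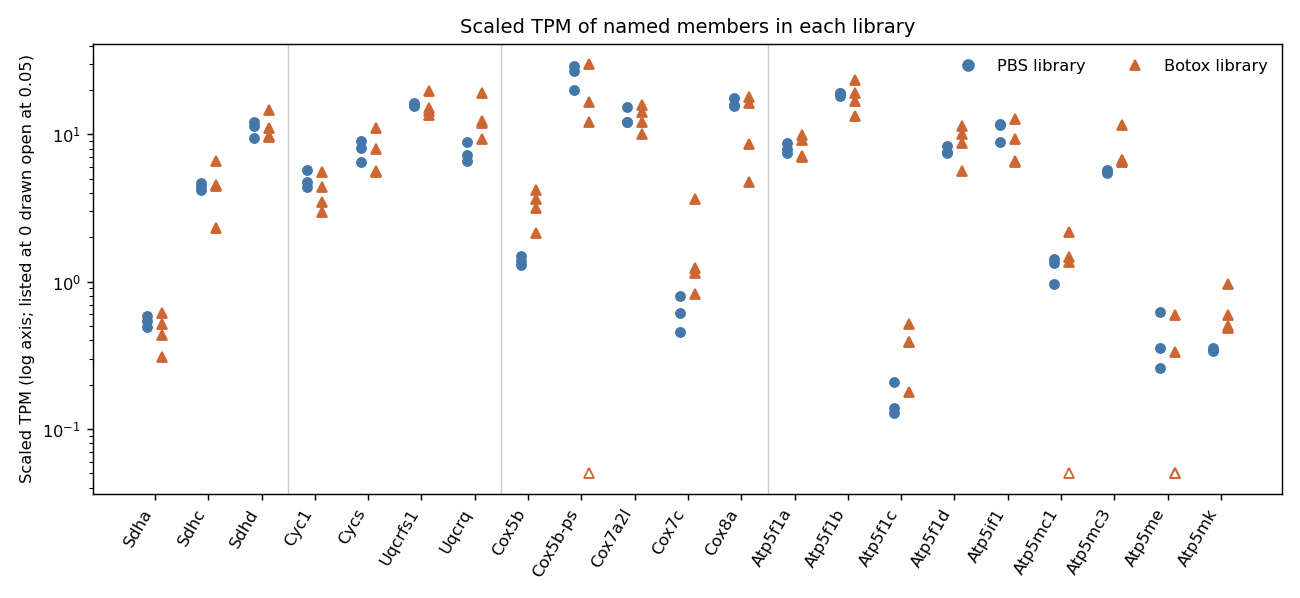
Scaled TPM (log axis) of the named tested members, 1 point per library, 3 PBS and 4 Botox, with values listed at 0 drawn open at 0.05 and lines parting complexes II, III, IV and V. Cox5b is higher in every Botox library (2.15 to 4.20) than in PBS (1.29 to 1.49), while Atp5f1b and Uqcrfs1 overlap between the groups.

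Complex IV held the member with the smallest p, and 6 of its 14 tested members were above 0. Among the 6 were Cox5a and Cox8b, which passed the filter only through their Botox values. Cox5b, a nuclear subunit at the matrix side that binds zinc, was at 1.37, 1.49 and 1.29 after PBS and 2.15, 3.66, 3.17 and 4.20 after Botox. All Botox libraries were above all PBS libraries, Botox 1 least. The difference was 1.16 ± 0.25 (unadjusted p = 0.00244, limma adjusted p = 0.918). The reads behind it were few, 22, 32 and 31 in PBS and 36, 61, 49 and 43 in Botox.

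Cox5b-ps is an intronless copy of Cox5b on chromosome 13 (mm39 chr13:21685120-21685617), and the gene lies on chromosome 1 (chr1:36730530-36732763). Over the 387 coding bases of Cox5b, 384 were identical in the copy (99.2%). The windows that follow show how alike the pair is. They hold coding bases 54 to 153 of Cox5b, with an exon junction after base 50 of the window, and the aligned bases of the copy. They are from the GENCODE M21 transcripts and differ by C61T, counted from 1 at the 5′ end of the window and printed in capitals.
Cox5b: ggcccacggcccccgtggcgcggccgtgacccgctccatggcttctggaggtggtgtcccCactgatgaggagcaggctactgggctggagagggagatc
Cox5b-ps: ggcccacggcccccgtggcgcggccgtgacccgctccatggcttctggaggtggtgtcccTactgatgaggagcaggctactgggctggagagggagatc
The copy has no intron at the junction, so a read across it matches the copy's genomic sequence without a gap and the gene's only when split.

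Scaled TPM of Cox5b-ps was 27.0, 29.1 and 20.1 after PBS and 16.6, 12.1, 29.8 and 0 after Botox. Botox 3 was the highest of all libraries, Botox 1 and Botox 2 lay below the PBS range, and Botox 4 was listed at 0 (-2.34 ± 1.94, limma adjusted p = 0.941). The copy held 94, 137 and 105 reads in PBS and 62, 45, 103 and 0 in Botox. Its share of the reads of the pair was 77.5% to 81.4% in PBS and 63.1%, 42.5%, 67.7% and 0% in Botox 1 to 4. With the reads of gene and copy added together the difference was -0.15 ± 0.29 (limma adjusted p = 0.957), against 1.16 for the gene alone.

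Cox7c, a small subunit of complex IV, showed the same kind of pair. Its coding bases 26 to 125, again with an exon junction after base 50, have no difference from the processed pseudogene Gm12338.
Cox7c: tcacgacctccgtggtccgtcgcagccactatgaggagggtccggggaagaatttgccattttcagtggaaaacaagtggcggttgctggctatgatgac
Gm12338: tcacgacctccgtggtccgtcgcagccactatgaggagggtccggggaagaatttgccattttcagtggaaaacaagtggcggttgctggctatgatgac
Cox7c was at 0.612, 0.805 and 0.452 after PBS and 0.829, 3.66, 1.24 and 1.15 after Botox. Botox 1 was just above the highest PBS library and Botox 2 far above all others (1.13 ± 0.50, limma adjusted p = 0.941), on 9 to 57 reads. The copy held 91.7% of the reads of the pair on average in PBS and 78.3% in Botox, and 58.0% in Botox 2. With all its copies added, Cox7c had a difference of 0.02 ± 0.18. Without Botox 2, the difference of the gene alone was 0.71.

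The search covered 51 members with a coding sequence and found 97 copies of 26 of them, 42 of which had a value above 0 in some library. In 7 members the copies held at least as many PBS reads as the gene, and these were Cox5b, Cox7c, Uqcrb, Atp5mc1, Atp5pd, Atp5mg and Atp5mk. For Atp5mk, the copies' share was 58.1% in PBS and 33.2% in Botox, and the difference went from 0.69 to 0.23 with the copies added. For Atp5mc1 and Atp5pd the copies held 100% of the reads in Botox 4, where both genes were listed at 0. With copies added, Atp5mc1 went from -0.64 to -0.01 and Atp5pd from -0.74 to 0.25. For Uqcrq and Atp5mc3 no copy was found, so this sum does not bear on them.

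**Figure D3:**
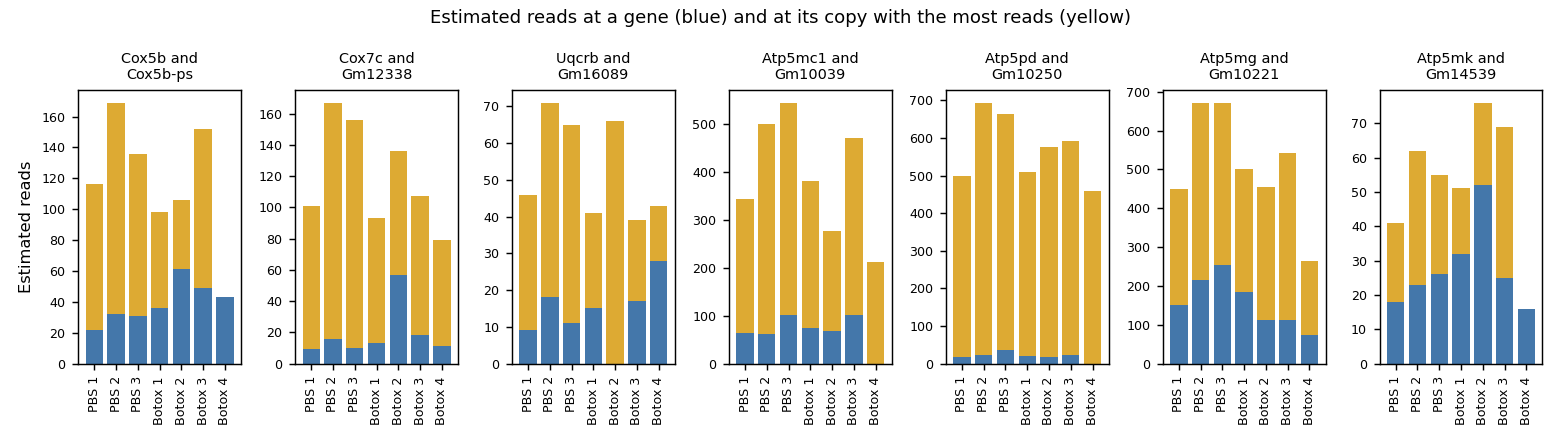
Estimated reads in each library at 7 members (blue) and, stacked on them, at the copy of each with the most reads (yellow). The yellow part of the Cox5b bars is absent in Botox 4, and the blue part is absent for Atp5mc1 and Atp5pd there and for Uqcrb in Botox 2.

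Cox7a2l, Cox8a and Cox4i1, also of complex IV, gave small differences or wide spreads. Cox7a2l, which joins complexes III and IV into supercomplexes, had the most reads per library, 1123 to 1965. It was at 15.4, 12.2 and 12.1 after PBS and 12.1, 10.1, 14.2 and 15.9 after Botox, with overlapping groups (-0.03 ± 0.19). Cox8a, the common form of subunit VIII, was at 15.9, 15.5 and 17.6 and at 16.4, 8.66, 17.9 and 4.78. Botox 1 lay inside the PBS range and Botox 3 just above it, whereas Botox 2 and Botox 4 were below all other libraries (-0.63 ± 0.46). Without these 2 libraries it was 0.07. Cox4i1, the common form of the subunit that binds ATP as a regulator, was likewise lowest in Botox 2 and Botox 4, at 1.14 and 0.693 against 1.79 to 2.29 in PBS (-0.47 ± 0.45). Its span overlaps Emc8 on the other strand, and without a stated strand setting reads in the shared stretch of such a pair cannot be told apart. The same holds for Atp5pf with Gabpa, Cox6c with Vps13b, Atp5pb with Wdr77 and Uqcrb with Ramacl. It also holds for Atp5f1d with Cbarp, Atp5f1a with Haus1 and Atp5mk with Taf5, among others. The shared stretch can be short, so that most of a gene's span is not affected. Taf5 ends at base 47071919 and Atp5mk starts at 47071903, and Haus1 ends at 77861587 and Atp5f1a starts at 77861429.

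Cox7b, a small subunit, was at 0.505, 0.576 and 0.294 after PBS and 0.256, 0, 0.384 and 0 after Botox (-1.42 ± 0.70, limma adjusted p = 0.941). Botox 3 lay inside the PBS range. Of the other tested members of complex IV, Cox7a2 was at 0.65 ± 0.35, Cox6c at 0.34 ± 0.25, Cox5a at 0.36 ± 0.79, Cox6b1 at -0.73 ± 0.46, Cox6b2 at -0.67 ± 0.96 and Cox6a1 at -0.83 ± 1.07. Cox5a and Cox6a1 were listed at 0 in Botox 2 alone.

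The tissue versions of complex IV subunits were low or listed at 0. Cox6a2, Cox7a1, Cox7b2 and Cox8c had no reads anywhere, and Cox4i2, known from lung, had 0 to 6. Cox6b2, known from testis, had 0 to 10 reads. Cox8b, the heart and muscle form of subunit VIII, was listed at 0 in 6 libraries and at 7.41 scaled TPM, or 51 reads, in Botox 4. Of 8 skeletal muscle markers, only Tnni2 was high enough to test. Their sum was 0.587 scaled TPM in Botox 4, all from Tnni2, and 0.742 to 1.62 in PBS. Acta1 and Ckm were low in PBS, with means of 0.0804 and 0.0903. Both were listed at 0 in Botox 4 and Botox 2, and Acta1 in Botox 3 as well. The source of the Cox8b reads was not tested.

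Complex V had 5 of 15 tested members above 0 and a median of -0.24. Among the 5 was Atp5f1c, which passed the filter only through its Botox values. Without Botox 4 the median was -0.02, and it was also -0.02 with copies added. The main subunits of the catalytic head overlapped between the groups. Atp5f1b, the beta subunit that makes ATP, was at 19.2, 18.3 and 19.2 after PBS and 19.0, 13.4, 23.5 and 16.9 after Botox (-0.08 ± 0.20). Atp5f1a, the alpha subunit, was at 8.67, 7.43 and 7.98 and at 7.18, 7.06, 9.19 and 9.88 (0.04 ± 0.17). In both genes Botox libraries lay on either side of PBS, Botox 3 above it and Botox 2 below. Atp5f1d, the delta subunit of the central stalk, was at 7.43, 8.32 and 7.64 and at 8.73, 5.62, 11.4 and 10.1. Botox 2 was the lowest of all, and the other Botox libraries were above PBS (0.15 ± 0.25). Atp5f1c, the gamma subunit that turns inside the head, was at 0.139, 0.129 and 0.208 and at 0.179, 0.515, 0.388 and 0.392. Botox 1 lay within PBS and the others above (0.81 ± 0.38, limma adjusted p = 0.941). Atp5f1e, the epsilon subunit, was listed at 0 in Botox 4 (-0.45 ± 1.04).

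Atp5if1, which blocks the enzyme from running backward, was at 11.8, 11.5 and 8.93 after PBS and 9.26, 6.58, 12.8 and 6.54 after Botox. Botox 2 and Botox 4 were below PBS and Botox 3 above it (-0.34 ± 0.27, limma adjusted p = 0.941).

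The c-ring, the rotor through which protons pass, is built from 1 mature protein encoded by Atp5mc1, Atp5mc2 and Atp5mc3. Atp5mc3 was at 5.77, 5.48 and 5.55 after PBS and 6.71, 11.6, 6.50 and 6.74 after Botox, on 89 to 248 reads. All Botox libraries were above PBS, Botox 2 by far the most (0.44 ± 0.23, limma adjusted p = 0.941), and without Botox 2 it was 0.24. On the deposited scale it was -0.20 ± 0.45. Atp5mc1 was at 1.33, 0.959 and 1.42 and at 1.47, 1.35, 2.16 and 0, with Botox 3 highest and Botox 4 listed at 0 (-0.64 ± 1.07). Without Botox 2 and Botox 4 it was 0.51. Atp5mc2 had 3 to 13 reads in PBS and 0 to 12 in Botox and was not tested.

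Atp5mk, a small subunit linked to dimers of the enzyme, was at 0.356, 0.337 and 0.342 after PBS and 0.593, 0.971, 0.501 and 0.486 after Botox. All Botox libraries were above PBS (0.69 ± 0.29, limma adjusted p = 0.941). Atp5me, another membrane subunit, was at 0.354, 0.262 and 0.627 and at 0.332, 0, 0.598 and 0, on at most 8 reads (-1.07 ± 0.82). The remaining tested members were below 0 as well, namely Atp5mf (-0.65 ± 0.52), Atp5mg (-0.35 ± 0.20), Atp5pf (-0.24 ± 0.37), Atp5pb (-0.15 ± 0.30) and Atp5pd (-0.74 ± 0.78). Atp5pb, Atp5pd and Atp5pf belong to the peripheral stalk that holds the head still, and so does Atp5po, which with Atp5mj was too low to test, at 0 to 18 and 0 to 12 reads.

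The Botox libraries were spread widely around PBS. Taken over each complex, the median difference from the PBS mean in Botox 3 was 0.42 for complex II, 0.57 for III, 0.26 for IV and 0.27 for V, the highest of all libraries in each. Botox 2 was lowest for complex IV, at -0.60, and Botox 4 for complex V, at -0.47. The median of the 10592 nuclear protein-coding genes tested stayed between -0.05 and 0.03 in every library. The size factors hold it near 0 by construction, and a median over few members can move more than the median over all those genes. Without Botox 2 and Botox 4, the median differences were 0.12 for complex IV and 0.14 for V relative to those genes, against -0.21 and -0.21 with all libraries. For complex IV, Botox 4 was not low, at 0.23, and without Botox 2 alone the median relative to those genes was 0.17. For complex V that median was -0.17 without Botox 2 alone and 0.001 without Botox 4 alone.

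**Figure D4:**
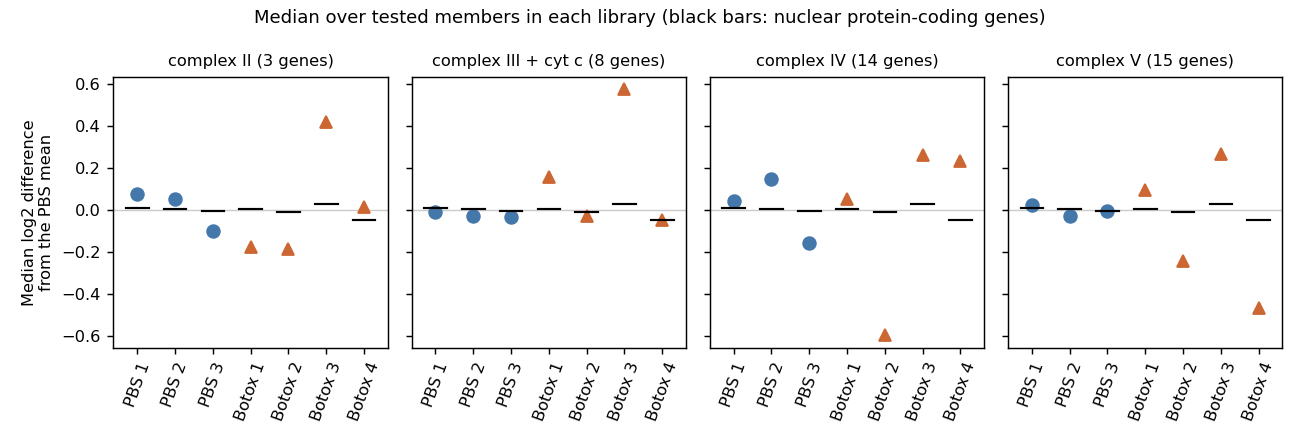
Median log2 difference from the PBS mean over the tested members of each complex, 1 point per library (circles PBS, triangles Botox), with black bars for the median of nuclear protein-coding genes tested. Botox 3 is the highest library in all 4 panels, at 0.26 to 0.57.

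Botox 2 and Botox 4 lacked some members. Of 36 members with at least 10 reads in each PBS library, 3 were listed at 0 in Botox 2 (Cox5a, Cox6a1 and Cox7b) and 5 in Botox 4 (Cox5b-ps, Cox7b, Atp5f1e, Atp5mc1 and Atp5pd), and none in Botox 1 or Botox 3. Over 11825 nuclear protein-coding genes with as many reads, the shares at 0 were 2.58% in Botox 2 and 7.37% in Botox 4, against 0.0254% in Botox 1 and 0.558% in Botox 3. Members held 8304 to 11305 reads in PBS and 8127, 7246, 9665 and 4964 in Botox 1 to 4. Whether loss of weakly covered genes set any difference given above was not tested.

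Members also differed in how well they were covered. With annotated transcript length in place of genomic span, PBS reads per kilobase ran from 7.88 for Sdhb to 1603 for Cox7a2l among 43 genes. These have a transcript in GENCODE M21 and a mean of about 5 reads or more. Cox5b-ps and the tissue versions of complex IV subunits were left out. Members whose longest exon is under 300 bases had a median of 59.1 reads per kilobase (25 genes), and those with a longer exon 172 (18 genes). Spearman's rho between longest exon and reads per kilobase was 0.41 across these 43 genes, which share the libraries and are not independent.

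Subunits of the same complexes encoded by mtDNA are made and counted separately. All 6 had differences above 0, beside 44.9% of nuclear protein-coding genes tested, with a median of 0.57, and none passed limma's test. These differences rest on the size factors, 0.446 in Botox 4 against 1.22 to 1.43 in PBS. Their sign on deposited TPM is not given here. The summed scaled TPM of the 6 was 31222 to 38812 in PBS and 34282, 58127, 21395 and 204863 in Botox 1 to 4. It was lowest in Botox 3, where the nuclear members were highest, and by far highest in Botox 4.

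Assembly factors and regulators had no calls either. For complex IV, 18 of 25 were tested, 7 were above 0, and Surf1, Sco2 and Cox19 were higher in every Botox library, beside 4.37% of nuclear protein-coding genes tested. Sco2, which delivers copper to complex IV, was at 9.03, 7.74 and 8.22 after PBS and 10.3, 15.5, 10.4 and 15.9 after Botox (0.61 ± 0.21, limma adjusted p = 0.941). For complexes II, III and V, 2 of 4, 4 of 9 and 4 of 5 factors were tested, and none had groups apart. Of 13 regulators, 11 were tested, and Polrmt, the RNA polymerase of mitochondria, had the smallest p. It was at 2.13, 1.93 and 1.80 and at 2.74, 3.03, 3.60 and 3.30, higher in all 4 Botox libraries (0.66 ± 0.16, unadjusted p = 0.00464, limma adjusted p = 0.941). Lonp1, a protease of the mitochondrial matrix, was also higher in each (0.45 ± 0.20), and Nrf1 was lower in each, beside 4.37% of nuclear protein-coding genes tested higher and 3.43% lower throughout.

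Markers of other cells were present in every library. The 12 macrophage markers summed to 701 to 1025 scaled TPM in PBS and to 222, 1220, 629 and 1193 in Botox 1 to 4. Botox 1 was far below PBS and Botox 2 and Botox 4 above it, while all 11 tested markers had differences below 0, with a median of -0.22. Neutrophil markers summed to 7.96 to 14.6 and 5.81 to 18.5, and none of 6 adipocyte markers was high enough to test. Epithelial markers of the tumor cells summed to 165 to 198 and 149 to 216. The part of other cells in the members' values was not tested.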

How the data were processed

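RNA was measured in 7 libraries of sorted 4T1 cells, grouped by sample title, since the treatment field has the same entry, untreated, for all 7. Per the labels' protocols, total RNA was ribodepleted and made into stranded, paired-end libraries. Per the submitters' processing notes the build was mm39, and the tools named, without their roles, were Bowtie2 2.2.5, SAMtools and DESeq2. How reads were counted, with which strand setting and with what done about multi-mapping reads, is not given in the sources used here. TPM was deposited by the authors, made with stop minus start as gene length, with 0.001 added to each value. For KEGG sets, the authors give a ratio and signed fold of B over C (taken here to be Botox and control), a p-value, a false discovery rate and a score-like mean of each group per the file headers.

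The constant was removed, and values were divided by median-of-ratios size factors from 11067 nuclear protein-coding genes above 0 in every library. The 16889 genes with a mean of at least 0.2 were tested with limma 3.58.1 (R 4.3.3) on log2(scaled TPM + 0.1) with an intensity trend, by group only, two-sided, with Benjamini-Hochberg adjustment at 0.05. In each library, TPM times span fell on multiples of 1 step, taken as 1 read. Of the values worth less than 20 reads, 89.3% to 90.7% were whole to within 0.1. Because not all were, reads describe depth only and entered no count test. They carry no molecular identifiers and are not independent molecules.

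Copies were found with blastn 2.17.0 of each member's longest coding sequence (GENCODE M21) against pseudogene transcripts and Cox5b-ps, at 85% identity or more over at least 60% of the sequence. Summing a gene with its copies was an alternative added after seeing the data. Other alternatives changed scaling, pseudocount, filter, genes, libraries, weights and the replicate block. In simulated tables of 16889 genes with the spread of this comparison, the fit called 22.3% of changes of 1 and 59.7% of changes of 2 on the log2 scale. Members, gene lists and tests were chosen with earlier results of these data known. Values in every library are given for up to 3 members of highest mean, up to 2 of smallest p, those of highest and lowest difference in each complex, and a set of core subunits; the listing of Cox4i1, Cox7b and values of other genes was chosen after seeing them.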

Additional observations from a re-analysis of the deposited data

Results flagged for a closer look

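Over the 4 Botox libraries, 28 checks were made, on 24 members and on the medians of the 4 complexes. In 3 of them, each a member, a single library lay far from the rest. There the gap to its nearest neighbour divided by the whole range passed Dixon's critical value of 0.829. Chance marks about 1 in 20 such groups when they are not picked by their values, and some members here were picked by p or difference. Cox8b had a ratio of 1.0, which its values fix, since it had reads in Botox 4 alone (7.41 scaled TPM) and passed the filter only through that library. Atp5mc3 had 0.9525 and Cox7c 0.8543, both because Botox 2 was high, at 11.6 against 6.50 to 6.74 scaled TPM for Atp5mc3 and 3.66 against 0.829 to 1.24 for Cox7c.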

How the results depend on the processing

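No member passed limma's adjusted threshold under any of the 19 alternatives, where the smallest adjusted p of a member was 0.0544, for Cox5b without Botox 1 (0.918 with all libraries). Counts of genes called, 1 with all settings as described, were 0 on deposited TPM, 0 with a filter at 1, 0 with protein-coding genes only, 0 with the replicate block and 66 with no filter. With libraries left out the count was 0 to 114, the 114 (4 higher) without Botox 1 and 0 without both Botox 2 and Botox 4. Medians relative to coding genes ranged from -0.27 to 0.17 for complex IV, the highest without Botox 2, and from -0.28 to 0.14 for V, the highest without both. Leaving out libraries turned some members given in every library, with ranges of -0.12 to 0.12 for Sdhd, -0.29 to 0.29 for Sdhc, -0.16 to 0.033 for Uqcrfs1, -0.30 to 0.023 for Cycs, -0.88 to 0.073 for Cox8a, -0.13 to 0.088 for Cox7a2l, -0.22 to 0.16 for Atp5f1b, -0.53 to 0.025 for Atp5if1, -1.60 to 0.16 for Atp5me, -0.047 to 0.11 for Atp5f1a and -1.11 to 0.51 for Atp5mc1. Among the tested members given in every library, deposited TPM turned Sdhd (-0.63), Atp5f1d (-0.49), Atp5f1a (-0.60) and Atp5mc3 (-0.20). Quantile normalization turned Sdhd (-0.12) and Atp5f1a (-0.10), and a common total over coding genes turned Sdhd (-0.003). Array weights turned Sdhd (-0.037), Sdhc (0.089), Cox7a2l (0.003), Atp5f1b (0.032) and Atp5mc1 (0.28). Adding copies turned Cox5b (-0.15) and, outside those members, Atp5pd (0.25). The causes were not tested, beyond what each alternative changes by construction.

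Groups share replicate numbers, but same-numbered libraries did not deviate together (r = 0.02, -0.02 and -0.08), and no PBS library correlated best with its own number. With the number as a replicate block, 0 genes were called. Botox 4 has no partner, so the block's differences equal those without Botox 4, and the sign changes of Sdhc (0.19), Cycs (0.023), Atp5f1a (-0.047) and Atp5mc1 (0.39) come with its loss. Depth limits members with few reads. In simulated tables most 2-fold changes were missed, and these were planted only in genes of higher mean, so lower members were not covered.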
